A study of Mus musculus with 6 samples.

Results

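Fc receptors are the proteins by which a macrophage senses bound antibody, and an antibody added to macrophage cultures can bind them through its Fc part. Whether 3A2 did so in these cultures was not tested. The 10 genes described here encode the mouse Fc gamma receptors (Fcgr1, Fcgr2b, Fcgr3 and Fcgr4), their shared signalling chain (Fcer1g), the intracellular IgG receptors (Fcgrt and Trim21) and the enzymes that start or stop the signal (Lyn, Syk and Inpp5d). They were chosen by gene symbol, with no measured value in the rule but with earlier results of these data known. All 10 were found among the 40773 symbols of the table. RNA came from RAW264.7, an established mouse macrophage line of plain genotype per the labels, so all libraries derive from a single line. In the first group, cells received lipopolysaccharide (LPS, 100 ng/mL) together with 3A2, an antibody that neutralizes the membrane metalloproteinase MMP14, at 50 µg/mL for 24 h. In the second group, cells received the same LPS dose for 24 h and no antibody. Each group had 3 biological replicates, and LPS was common to all 6 cultures. A culture with LPS and a non-specific antibody is not among those analysed here, so binding of MMP14 by 3A2 and antibody as such cannot be told apart. The labels do not state the species or subclass of 3A2.

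As background, IgG bound to a target is recognised through its Fc part. Activating receptors such as those encoded by Fcgr1, Fcgr3 and Fcgr4 pair with the Fc receptor gamma chain, whose tail carries an activation motif (ITAM) that is phosphorylated by Src family kinases such as Lyn and then recruits the kinase Syk. The receptor encoded by Fcgr2b carries an inhibitory motif (ITIM) that recruits the lipid phosphatase SHIP1, the product of Inpp5d. In macrophages the balance between these receptors sets the threshold for phagocytosis and cytokine release, while FcRn (Fcgrt) recycles IgG and TRIM21 binds antibody that reaches the cytosol.

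The signalling motifs can be read in the coding sequences of GENCODE M21 transcripts (GRCm38), which are shown because the receptors' opposite roles rest on them. The first stretch codes for the ITAM of the Fc receptor gamma chain and the second for the ITIM of Fcgr2b, each read 5′ to 3′ with the tyrosine codons in capitals.
Fcer1g: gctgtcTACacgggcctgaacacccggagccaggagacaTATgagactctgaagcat
Fcgr2b: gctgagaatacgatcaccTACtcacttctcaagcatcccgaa
The ITAM stretch holds 2 tyrosine codons and the ITIM stretch holds 1.

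Fcgr2b and Fcgr3 differ in function but share much of their extracellular coding sequence, which bears on how reads can be assigned. Their coding sequences were identical at 79.7% of 790 aligned bases, against 54.9% to 62.7% for the other pairs among the 4 Fc gamma receptor genes. The longest run without a difference was 129 bases, and 22.1% of all 50-base windows of the Fcgr3 coding sequence occur whole in that of Fcgr2b. The 180 bases around that run are given for both genes, with the 3 positions that differ in capitals.
Fcgr2b: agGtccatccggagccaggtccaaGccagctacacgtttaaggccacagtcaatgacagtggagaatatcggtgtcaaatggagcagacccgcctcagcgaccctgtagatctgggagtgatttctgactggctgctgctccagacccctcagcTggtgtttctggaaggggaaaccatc
Fcgr3: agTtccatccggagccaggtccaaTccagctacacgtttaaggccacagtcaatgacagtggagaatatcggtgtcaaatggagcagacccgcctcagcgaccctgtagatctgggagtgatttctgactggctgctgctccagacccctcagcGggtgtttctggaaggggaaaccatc
The run is shorter than a 150-base read, but how the authors' counting treated reads from this stretch is not stated in the labels. Counts of Fcgr2b and Fcgr3 are therefore uncertain to the extent that such reads were split between them or left uncounted. The other Fc gamma receptor pairs shared no run longer than 14 bases.

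Libraries held 6060732 to 6537419 counts with LPS plus 3A2 and 6431096 to 7432553 with LPS. Mitochondrial mRNAs took 2.54%, 2.18% and 3.06% of counts with LPS plus 3A2, against 2.35%, 2.24% and 2.22% with LPS. Ribosomal protein mRNAs took 3.97%, 4.01% and 3.59% with LPS plus 3A2, against 4.10%, 4.11% and 4.10% with LPS, so replicate 3 of LPS plus 3A2 stood apart on both. All 9 macrophage markers were detected, although Mertk averaged only 0.593 CPM (counts scaled to a common library total). Their summed level was 6398 to 6826 CPM with LPS plus 3A2, against 7346 to 7398 CPM with LPS. Most of that difference lay in Lyz2, which encodes lysozyme. It measured 3780 ± 125 CPM with LPS plus 3A2 and 4337 ± 69.5 CPM with LPS (SD, n = 3, adjusted p = 0.719 by edgeR), without overlap. Csf1r did not overlap either, at 442, 436 and 397 CPM with LPS plus 3A2 against 476, 471 and 505 CPM with LPS. Nor did Itgam, at 405, 410 and 405 CPM against 423, 437 and 434 CPM. The other macrophage markers overlapped, and 12.3% of all tested genes had groups that did not. Markers of mast cells and basophils, which carry their own Fc receptors, had 0 counts in all 6 libraries. The B-lineage markers together reached no more than 0.501 CPM with LPS plus 3A2 and 0.732 CPM with LPS, with Cd79b and Ms4a1 at 0. Natural killer and T cell markers summed to 0 CPM with LPS plus 3A2 and at most 0.461 CPM with LPS, and platelet markers to at most 2.00 CPM with LPS plus 3A2 and 1.61 CPM with LPS. Neutrophil markers reached 6.68 CPM with LPS plus 3A2 and 7.47 CPM with LPS, with Ly6g, S100a9, Ngp and Ltf at 0. Nearly all of this was S100a8, at 5.70 to 6.51 CPM with LPS plus 3A2 and 5.83 to 7.47 CPM with LPS. Camp had at most 1 count in a library. In bulk RNA, fewer cells expressing a gene and less RNA per cell cannot be told apart.

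None of the 10 genes differed between LPS plus 3A2 and LPS by edgeR's quasi-likelihood test. At an adjusted p under 0.05, 0 of 10 passed, and the share over all 11498 tested genes was 0% as well. At an unadjusted p under 0.05, 0 of 10 passed too, where 6.51% of all tested genes did. All 10 genes passed the filter on low counts. The libraries of both groups overlapped for every one of the 10 genes, where 12.3% of all tested genes had groups that did not overlap. Fold changes ran from 0.874 to 1.16, with 5 genes above 1 and 5 below, and the median log2 fold change was -0.0035 (0.0017 over all genes tested). The median absolute log2 fold change was 0.096 for the 10 genes and 0.095 for all genes tested. For 9 of 10 genes the whole 95% interval stayed inside 1.5-fold, up or down (79.6% of all tested genes), and for all 10 it stayed inside 2-fold.

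**Figure D1:**
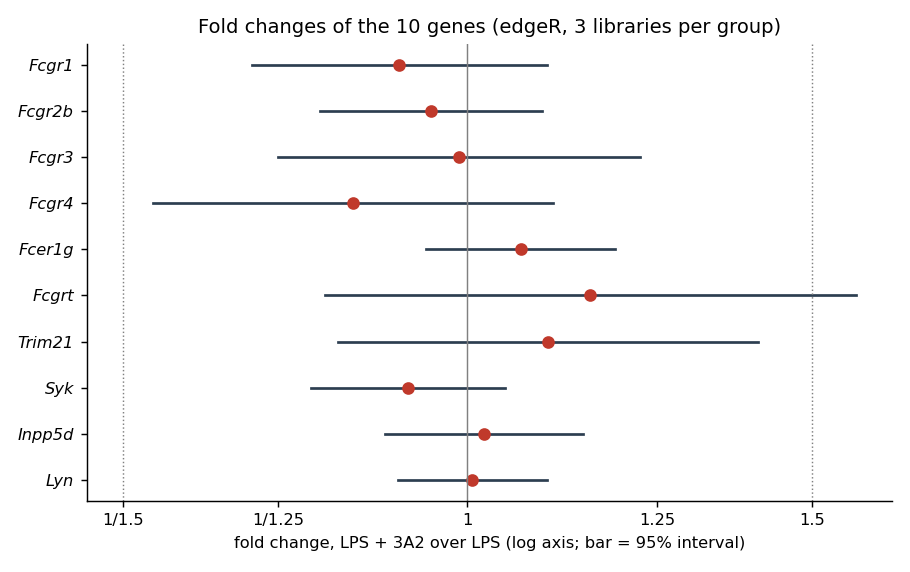
Fold change of each of the 10 genes in LPS plus 3A2 over LPS (points) with its 95% interval (bars), from edgeR with 3 libraries per group, on a log axis; dotted lines mark 1.5-fold in either direction. Every interval includes 1, and only that of Fcgrt reaches beyond 1.5-fold.

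The 4 Fc gamma receptor genes all had fold changes below 1, and none passed edgeR's test, with overlapping libraries in each case. Levels are in CPM, scaled by the TMM method. Fcgr1, the high-affinity IgG receptor, measured 26.3, 23.2 and 22.9 CPM with LPS plus 3A2, against 26.8, 23.4 and 28.4 CPM with LPS. Replicate 2 was low in the LPS group, within the range of the LPS plus 3A2 libraries. The fold change of Fcgr1 was 0.923 (95% interval 0.776 to 1.10, adjusted p = 0.863). Fcgr4, an activating receptor expressed on mouse monocytes, macrophages and neutrophils, measured 9.90, 12.3 and 10.9 CPM with LPS plus 3A2, against 10.7, 13.5 and 13.7 CPM with LPS. It had the lowest fold change of the 10 genes, 0.874 (0.691 to 1.11, adjusted p = 0.840), and replicate 1 was lowest in both groups.

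Fcgr3, the low-affinity activating receptor, measured 17.0, 13.9 and 13.9 CPM with LPS plus 3A2, against 14.6, 13.8 and 16.9 CPM with LPS. Both groups spanned nearly the same range, and the fold change was 0.990 (0.800 to 1.22). Fcgr2b, the inhibitory receptor, measured 48.5, 46.8 and 43.9 CPM with LPS plus 3A2, against 46.4, 48.3 and 50.7 CPM with LPS. Its fold change was 0.958 (0.841 to 1.09, adjusted p = 0.912), and the lowest value, in LPS plus 3A2 replicate 3, lay below all LPS values. In GENCODE M21 a gene on the opposite strand overlaps an exon of Fcgr2b by 155 bases, and a different one overlaps an exon of Lyn by 248 bases. The strand setting of the counting is not given.

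The shared chain Fcer1g had the most transcripts per length of the 10 genes. It measured 115, 110 and 104 CPM with LPS plus 3A2, against 110, 103 and 95.5 CPM with LPS. LPS plus 3A2 replicate 1 lay above all LPS libraries, replicate 2 only barely so, and replicate 3 within their range. The fold change was 1.06 (0.953 to 1.19, adjusted p = 0.840). Tyrobp, which encodes DAP12, another ITAM adaptor of myeloid cells, stood at 1.01-fold (0.913 to 1.12).

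**Figure D2:**
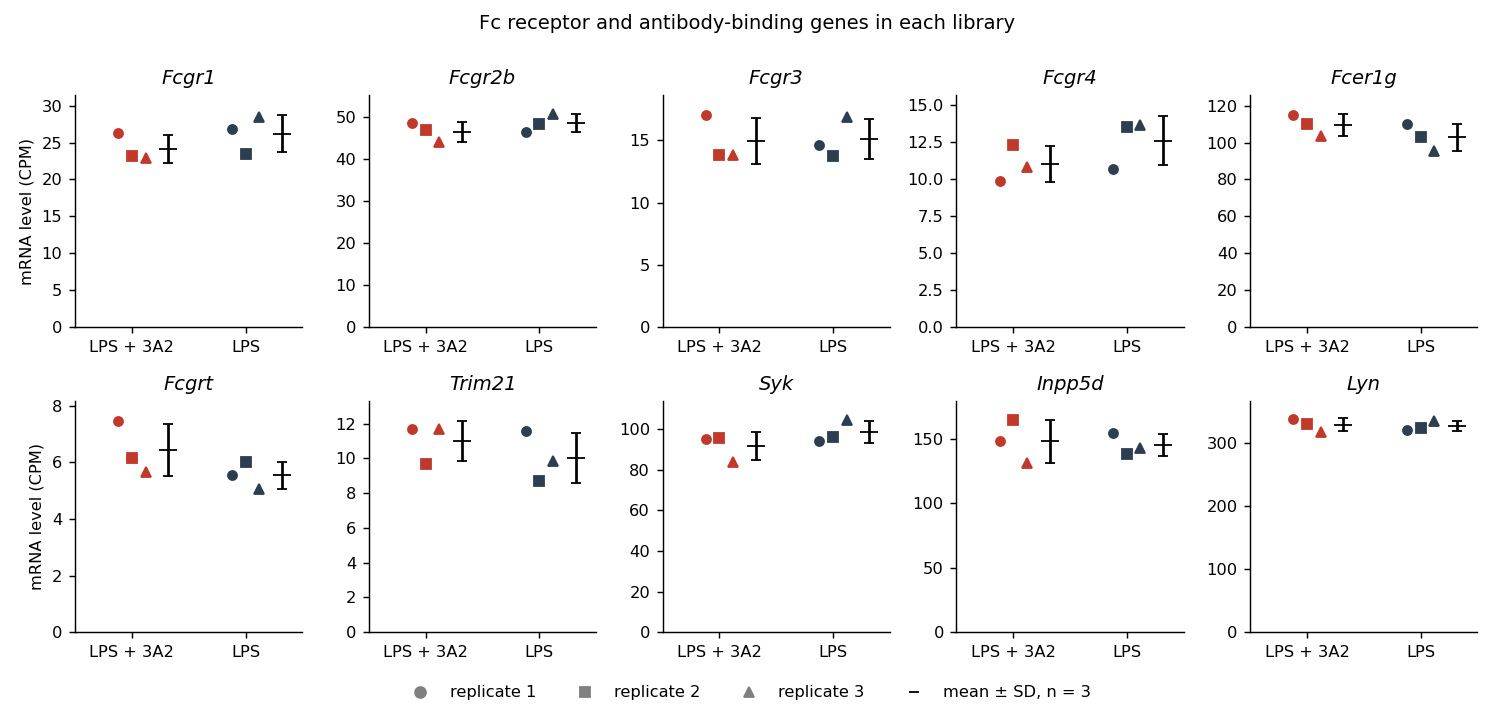
Level of each of the 10 genes in CPM in every library, with the 3 LPS plus 3A2 libraries left and the 3 LPS libraries right in each panel; marker shape gives the replicate number, bars show mean ± SD (n = 3), and every axis starts at 0. In all 10 panels the groups overlap.

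Neither the kinases nor the phosphatase of the pathway passed edgeR's test, and their libraries overlapped between groups. Lyn, the Src family kinase that phosphorylates both motif types, measured 339, 330 and 318 CPM with LPS plus 3A2, against 321, 324 and 335 CPM with LPS. Its fold change was 1.01 (0.921 to 1.10), the narrowest interval of the 10 genes. Syk, which docks on the phosphorylated ITAM, measured 95.4, 95.9 and 84.0 CPM with LPS plus 3A2, against 94.3, 96.5 and 105 CPM with LPS. Syk had the smallest p-value of the 10 genes, 0.215 unadjusted and 0.831 adjusted by edgeR, at a fold change of 0.932 (0.832 to 1.04). Syk was lowest in LPS plus 3A2 replicate 3 and highest in LPS replicate 3, which are separate libraries with no stated pairing. Inpp5d, which encodes the phosphatase recruited by the ITIM, measured 149, 165 and 131 CPM with LPS plus 3A2, against 155, 139 and 143 CPM with LPS. The LPS plus 3A2 libraries spanned the whole LPS range, with a coefficient of variation of 11.3% against 5.78% with LPS, and the fold change was 1.02 (0.908 to 1.15).

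The intracellular IgG receptors had the lowest means per kb over all 6 libraries and the widest intervals of the fold change. Fcgrt, which encodes the heavy chain of FcRn, had 46, 40 and 34 counts with LPS plus 3A2, against 38, 45 and 33 counts with LPS. Scaled, its level was 7.46, 6.16 and 5.68 CPM with LPS plus 3A2, against 5.57, 6.02 and 5.07 CPM with LPS, and the groups overlapped. Counting error alone spans 22.7 to 46.3 for the count of 33 (exact Poisson 95% interval, which covers counting error only). The fold change of Fcgrt was 1.16 (0.845 to 1.58, adjusted p = 0.863), so its interval reaches 1.58-fold at this depth. Trim21, the cytosolic antibody receptor and ubiquitin ligase, measured 11.7, 9.70 and 11.7 CPM with LPS plus 3A2, against 11.6, 8.70 and 9.83 CPM with LPS. Its fold change was 1.10 (0.858 to 1.41, adjusted p = 0.892), and replicate 2 was lowest in both groups.

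The extremes of the 10 genes were concentrated in a few libraries. The same count was not made over all tested genes, so it is not shown to be particular to the 10. LPS plus 3A2 replicate 3 was the lowest of the 6 libraries for 5 genes (Fcgr1, Fcgr2b, Syk, Inpp5d and Lyn) and the highest for Trim21. LPS plus 3A2 replicate 1 was the highest for 4 genes (Fcgr3, Fcer1g, Fcgrt and Lyn), and LPS replicate 3 for another 4 (Fcgr1, Fcgr2b, Fcgr4 and Syk). The median log2 fold change of the 10 genes was 0.033 without LPS plus 3A2 replicate 3 and -0.054 without LPS plus 3A2 replicate 1, and the other single omissions gave values between these. The part of the shifted mitochondrial and ribosomal protein shares of LPS plus 3A2 replicate 3 in these low values was not tested.

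Compared per length, the signalling chain and Lyn far exceeded the receptors. Per kb of coding length (GENCODE M21 principal transcripts), Fcer1g averaged 425 ± 22.4 CPM with LPS plus 3A2 and 399 ± 27.9 CPM with LPS, and Lyn averaged 223 ± 7.03 and 222 ± 5.03 CPM per kb (SD, n = 3 each). The next genes in order over all 6 libraries were Syk at 50.4, Fcgr2b at 46.5 and Inpp5d at 41.1 CPM per kb, and the library ranges of neighbours among these 3 overlapped. Fcgr1 at 20.8, Fcgr3 at 18.7 and Fcgr4 at 15.8 CPM per kb followed, again with overlapping ranges between neighbours. Trim21 at 7.60 and Fcgrt at 5.47 CPM per kb came last and overlapped each other. The inhibitory receptor was therefore the most abundant of the 4 Fc gamma receptor mRNAs on this scale. How reads shared by Fcgr2b and Fcgr3 were counted is unknown, which limits the comparison of these genes. Per kb of whole transcript the gap narrowed, with Fcgr2b at 13.4, Fcgr3 at 11.1, Fcgr1 at 9.72 and Fcgr4 at 9.41 CPM per kb and overlapping ranges between neighbours. On that scale Inpp5d, at 29.7 CPM per kb, stood above Syk, at 17.7.

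**Figure D3:**
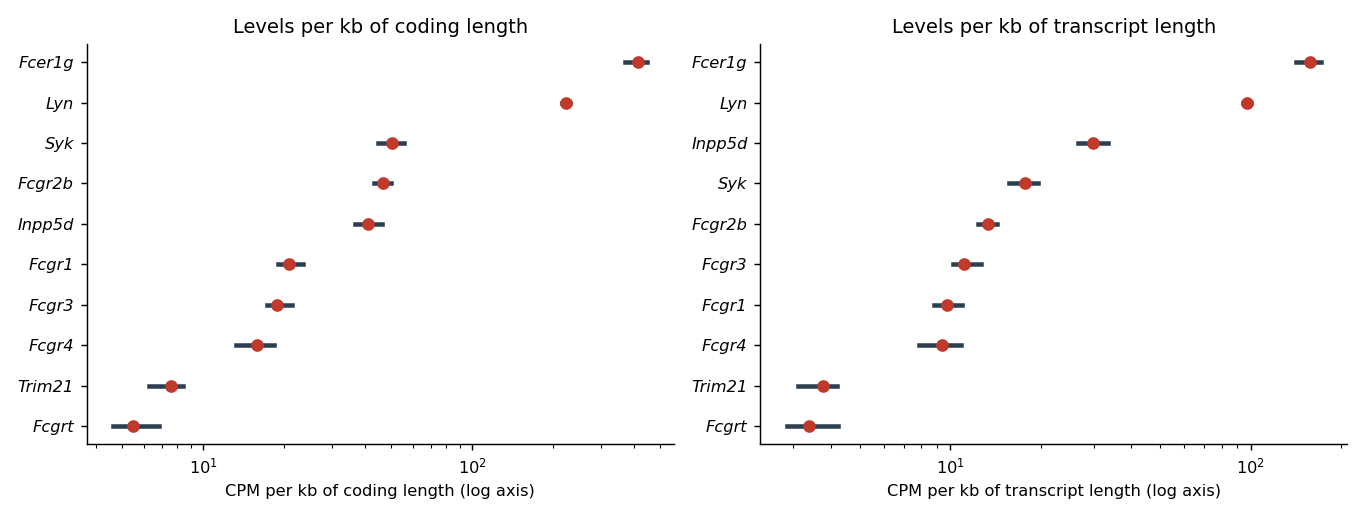
Level per kb of coding length (left) and of transcript length (right) for the 10 genes, on log axes; points are means over all 6 libraries and bars run from the lowest to the highest library. Fcer1g and Lyn lead on both scales. The order among Syk, Fcgr2b and Inpp5d depends on the length used, as does that of Fcgr1 and Fcgr3.

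Ratios between receptor mRNAs within a library do not depend on how libraries are scaled, and are given as a description without a test. From counts per kb of coding length, the ratio of Fcgr3 to Fcgr2b was 0.447, 0.377 and 0.402 with LPS plus 3A2, against 0.402, 0.363 and 0.424 with LPS. The ratio of Fcgr1 to Fcgr2b was 0.456, 0.418 and 0.438 with LPS plus 3A2, against 0.486, 0.408 and 0.472 with LPS. Both activating-to-inhibitory ratios overlapped between groups. The ratio of Fcgr4 to Fcgr2b was 0.279, 0.359 and 0.337 with LPS plus 3A2, against 0.314, 0.382 and 0.368 with LPS, and overlapped as well. The ratio of Fcer1g to the summed Fcgr1, Fcgr3 and Fcgr4 was 7.93, 8.06 and 7.91 with LPS plus 3A2, against 7.78, 7.33 and 5.89 with LPS. Here the groups did not overlap, by a narrow margin over LPS replicate 1, and LPS replicate 3 was far below the rest. The mean log2 difference of this ratio, LPS plus 3A2 minus LPS, was 0.20 with all libraries and 0.077 without LPS replicate 3. The size of the ratios depends on the length used. Per kb of whole transcript, Fcgr3 to Fcgr2b was 0.924, 0.779 and 0.830 with LPS plus 3A2, against 0.830, 0.751 and 0.877 with LPS. On that scale Fcgr4 to Fcgr2b was 0.576, 0.743 and 0.697 with LPS plus 3A2, against 0.650, 0.789 and 0.761 with LPS. The log2 differences between groups in the ratios to Fcgr2b were the same on both scales.

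**Figure D4:**
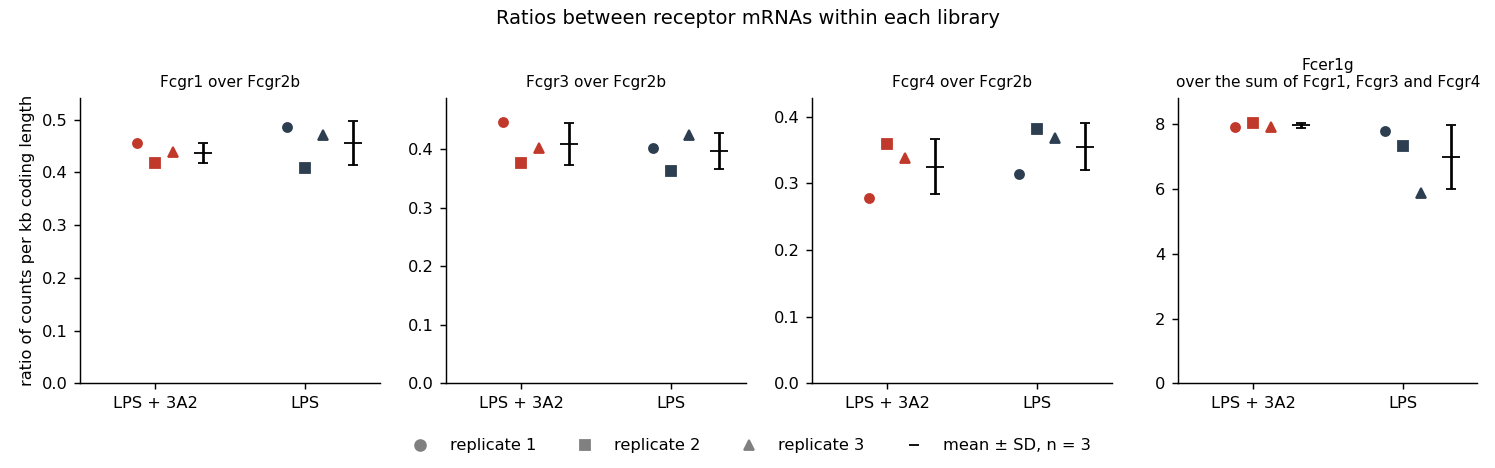
Ratios of counts per kb of coding length within each library, with LPS plus 3A2 left and LPS right in each panel; marker shape gives the replicate number and bars show mean ± SD (n = 3). The 3 ratios to Fcgr2b overlap between groups, while the ratio of Fcer1g to the activating receptors lies between 7.91 and 8.06 with LPS plus 3A2 and between 5.89 and 7.78 with LPS.

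Other genes of the pathway were taken from 9 lists with 194 different symbols besides the 10 genes, of which 193 were in the table and 152 were tested. None passed at an adjusted p under 0.05 by edgeR (smallest adjusted p = 0.719). At an unadjusted p under 0.05 there were 13, or 8.55% against 6.51% of all tested genes, with 8 higher and 5 lower. The groups did not overlap for 25 of the 152, or 16.4% against 12.3%. Of these genes 76 lay above 1 and 76 below.

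Kinases and adaptors downstream of the ITAM lay mostly below 1, in 22 of 33 tested genes, the median log2 value being -0.044, and 2 had an unadjusted p under 0.05, where 6.51% of all tested genes did. Over all tested genes, 5703 of 11498 lay below 1. The median was -0.023 without LPS replicate 3, -0.028 without LPS plus 3A2 replicate 3 and -0.060 without LPS plus 3A2 replicate 2. Leaving out any other single library gave a value between these. Lcp2, which encodes the adaptor SLP-76, measured 319, 310 and 300 CPM with LPS plus 3A2, against 366, 352 and 352 CPM with LPS. All 3 LPS plus 3A2 libraries lay below all LPS libraries, at 0.868-fold (95% interval 0.796 to 0.948, adjusted p = 0.719 by edgeR). Fyb, which encodes the adaptor ADAP that binds SLP-76, measured 219, 213 and 206 CPM with LPS plus 3A2, against 245, 232 and 238 CPM with LPS. It stood at 0.892-fold (0.815 to 0.977) with the same adjusted p. All 33 genes had an interval within 1.5-fold.

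Phosphatases and other brakes of ITAM signalling lay below 1 in 12 of 18 tested genes, with a median log2 fold change of -0.051. Ptpn6, which encodes the ITIM-binding phosphatase SHP-1, measured 218, 230 and 212 CPM with LPS plus 3A2, against 239, 244 and 264 CPM with LPS. All LPS plus 3A2 libraries lay below all LPS libraries, at 0.882-fold (95% interval 0.802 to 0.970, adjusted p = 0.719 by edgeR). Inppl1, which encodes SHIP2, the relative of SHIP1, stood at 0.909-fold (0.825 to 1.00). Among 14 tested ITIM receptors 8 lay above 1 and 6 below, and the most abundant, Lilrb4a, stood at 1.02-fold (0.931 to 1.12). Clec12a, an inhibitory lectin receptor, had 21, 14 and 18 counts with LPS plus 3A2, against 9, 10 and 7 counts with LPS. Its fold change of 2.26 (1.32 to 3.86, adjusted p = 0.719) rests on these low counts. Ceacam1 stood at 1.12-fold (0.926 to 1.35).

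Among the other activating receptors and adaptors 8 of 11 tested genes lay above 1, at a median log2 value of 0.061. This median was -0.014 without LPS replicate 2, 0.019 without LPS plus 3A2 replicate 3 and 0.039 without LPS replicate 3. It was 0.082 without LPS replicate 1, 0.088 without LPS plus 3A2 replicate 2 and 0.16 without LPS plus 3A2 replicate 1. Its direction thus rests on LPS replicate 2. Clec4e, which encodes the lectin Mincle that signals through the Fc receptor gamma chain, measured 286, 254 and 340 CPM with LPS plus 3A2, against 261, 267 and 271 CPM with LPS. Its high value in LPS plus 3A2 replicate 3 and its low one in replicate 2 bracket the LPS libraries, at 1.10-fold (0.976 to 1.24). Trem2 stood at 0.897-fold (0.757 to 1.06).

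Other immunoglobulin receptors were mostly silent. Of 16 listed, 9 had 0 counts in all 6 libraries, among them Fcmr, Fcamr, Fcer2a, Fcer1a and Ms4a2, which allows a level of up to 0.404 to 0.495 CPM in a library. B2m, the light chain of FcRn as well as of MHC class I, measured 844, 862 and 878 CPM with LPS plus 3A2, against 784, 772 and 811 CPM with LPS. All LPS plus 3A2 libraries lay above all LPS libraries, at 1.09-fold (95% interval 1.01 to 1.18, adjusted p = 0.748 by edgeR). Lgals3, which encodes the lectin galectin-3, stood at 0.967-fold (0.890 to 1.05). Fcrl1, a receptor-like gene best known from B cells and named here after its values were seen, was detected at 32.8 ± 2.13 CPM with LPS plus 3A2 and 32.4 ± 0.493 CPM with LPS, while the B cell markers Cd79b and Ms4a1 had 0 counts.

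Among 16 partners of TRIM21 and genes of cytosolic antibody sensing, 11 lay above 1, the median log2 value being 0.071, and none passed at an adjusted p under 0.05. The median was 0.031 without LPS plus 3A2 replicate 3, 0.032 without LPS replicate 2, 0.036 without LPS replicate 1 and 0.11 without LPS plus 3A2 replicate 1. Ube2n, the ubiquitin-conjugating enzyme that builds chains with TRIM21, measured 111, 98.5 and 123 CPM with LPS plus 3A2, against 95.2, 93.4 and 90.9 CPM with LPS. The groups did not overlap, at 1.19-fold (95% interval 1.06 to 1.34, adjusted p = 0.719 by edgeR). Ube2d1, another conjugating enzyme, measured 13.3, 14.2 and 13.7 CPM with LPS plus 3A2, against 9.23, 10.8 and 10.3 CPM with LPS, at 1.35-fold (1.09 to 1.69) and the same adjusted p.

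Related enzyme genes Ube2d2a, Ube2d3 and Ube2v2, named after their values were seen, also had an unadjusted p under 0.05, at 1.18-fold, 1.14-fold and 1.18-fold. These were 5 of 16 genes, all higher, where 6.51% of all tested genes had such a p in either direction. The count was 2 without LPS plus 3A2 replicate 3 (5.62% of all genes), 2 without LPS replicate 3 (4.21%), 3 without LPS plus 3A2 replicate 1 (5.48%) and 3 without LPS replicate 2 (3.92%). It was 4 without LPS replicate 1 (5.60%) and 5 without LPS plus 3A2 replicate 2 (15.0%). Ube2n, Ube2d2a, Ube2d3 and Ube2v2 were highest in LPS plus 3A2 replicate 3, the library with 3.06% mitochondrial mRNA, and the part of that difference was not tested. Vcp, the segregase that unfolds ubiquitinated cargo and the most abundant of the list, stood at 1.01-fold (0.922 to 1.10).

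Genes of the phagocytic cup and uptake split evenly, with 14 of 30 above 1 and 16 below, and all 30 intervals lay within 1.5-fold. The GTPase gene Cdc42 stood at 1.10-fold (95% interval 0.994 to 1.21), the exchange factor gene Dock8 at 0.901-fold (0.805 to 1.01), and the lysosomal membrane protein gene Lamp1, the most abundant, at 1.00-fold (0.920 to 1.09).

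Genes that immune complexes are known to shift in LPS-treated mouse macrophages, where interleukin-10 rises and interleukin-12 falls, were also read. Of 12 listed, 7 were tested, with 4 above 1 and 3 below, and 0 passed. The groups did not overlap for 1 gene that was higher, Hbegf, and 1 that was lower, Il23a (12.3% of all tested genes did not overlap). Hbegf, named after its values were seen, stood at 1.10-fold (95% interval 0.915 to 1.32, adjusted p = 0.848 by edgeR). Il10 had 30, 30 and 39 counts with LPS plus 3A2, against 36, 26 and 24 counts with LPS, so the groups overlapped, at 1.28-fold (95% interval 0.883 to 1.87, adjusted p = 0.819 by edgeR); it was named after its values were seen. Il12a, Il12b and Ccl1 had 0 counts in all 6 libraries, and Sphk1 and Tnfsf14 had at most 2 counts in a library, so no direction could be read from them. Il23a had 7, 8 and 7 counts with LPS plus 3A2, against 15, 14 and 13 counts with LPS, at 0.588-fold (0.333 to 1.04, adjusted p = 0.757). The interleukin-1 receptor antagonist Il1rn stood at 1.09-fold (0.991 to 1.21) and Tnf, the most abundant of the list, at 0.980-fold (0.893 to 1.07).

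Regulators of Fc gamma receptor transcription lay above 1 in 11 of 19 tested genes and below in 8, and the median log2 value of 0.010 took either sign as single libraries were left out, between -0.030 without LPS plus 3A2 replicate 2 and 0.020 without LPS replicate 3. Spi1, which encodes PU.1, a factor needed for Fc gamma receptor expression in macrophages, measured 110, 129 and 103 CPM with LPS plus 3A2, against 129, 135 and 132 CPM with LPS. LPS plus 3A2 replicate 2 lay among the LPS libraries and the others below them, and the fold change was 0.864 (95% interval 0.769 to 0.971, adjusted p = 0.719 by edgeR). Cebpb measured 202, 223 and 183 CPM with LPS plus 3A2, against 226, 228 and 240 CPM with LPS, without overlap, at 0.877-fold (0.790 to 0.973) and the same adjusted p. Il4ra, which encodes the receptor for interleukin-4 and was named after its values were seen, stood at 1.28-fold (1.03 to 1.60).

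**Figure D5:**
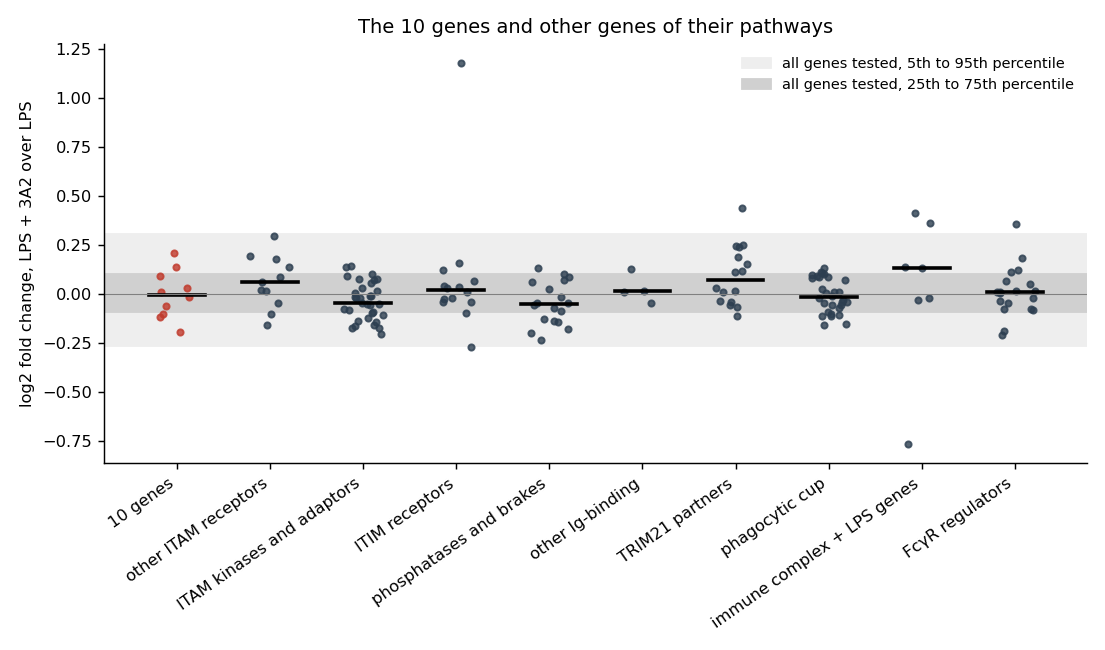
Log2 fold change, LPS plus 3A2 over LPS, of each tested gene (points) among the 10 genes and in the 9 lists, with each list's median (black bar); shaded bands give the 5th to 95th and the 25th to 75th percentile of all genes tested. Clec12a and Il23a, both with few counts, lie farthest from 0.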

How the data were processed

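The authors deposited raw read counts per gene symbol, one column per library and not pooled. Per the labels' protocols, ribosomal RNA was depleted and strand-specific libraries were sequenced as paired 150-base reads. HISAT2 and edgeR are named without version or role, and GRCh38, a human build, per the submitters' processing notes, while 39282 of 40773 symbols match mouse genes of RefSeq GRCm38. No coordinates are therefore printed. The table also holds values in 3 columns without a header, next to 3 genes, which were left out.

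In R 4.3.3, filterByExpr left 11498 genes, TMM set the library scaling, and edgeR 4.0.16 compared LPS plus 3A2 with LPS by its quasi-likelihood test (robust setting, group as the sole term). All p-values are two-sided. Adjusted p-values are Benjamini-Hochberg adjusted over all tested genes, with a threshold of 0.05, and those called unadjusted are as the test gave them. Intervals are at the 95% level, from the test's standard error. The biological coefficient of variation was 0.0768. Coding sequences and lengths came from GENCODE M21 principal transcripts, and the limit behind a 0 is 3 counts. Every pair of libraries differed by more than counting error (chi-square per degree of freedom 3.33 to 22.0). The largest value, 22.0, was between replicates 2 and 3 of LPS plus 3A2, and the smallest between LPS replicates 2 and 3. LPS plus 3A2 replicate 2 lay at 6.31 from its own replicate 1 and at 3.68 from LPS replicate 3. Spread within the LPS plus 3A2 group was thus as large as any distance between groups. The test was checked on simulated data. DESeq2 1.42.0 and limma-voom (limma 3.58.1) were alternatives.

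The 10 genes and the lists were chosen with earlier results of these data known. Named genes were the 10, the 2 tested genes with the smallest p in each list, and its most abundant gene. Other genes in the text, Lyz2 and Tyrobp among them, were named after their values were seen.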

Additional observations from a re-analysis of the deposited data

How the results depend on the processing

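For the 10 genes, 0 passed under any of the alternatives tried: DESeq2 size factors, upper-quartile scaling, no filter, at least 1 CPM in every library, DESeq2, limma-voom, a block on replicate number, adjusted p thresholds of 0.01 and 0.10, and leaving out each library. Over 130 refits of single genes, 0 had an unadjusted p under 0.05. The lowest adjusted p, 0.462, was that of Syk without LPS plus 3A2 replicate 2. Fold changes lay between 0.813 and 1.22, and 7 refits, of Fcgr3, Inpp5d and Lyn, took the opposite sign. Of these, only Inpp5d in 1 refit moved by more than its standard error, to a log2 fold change of -0.054 without LPS plus 3A2 replicate 2. Genes of the 9 lists gave 0 calls throughout as well. The threshold of 0.10 was applied with all 6 libraries only. Without LPS plus 3A2 replicate 2, adjusted p by edgeR was 0.063 for Ube2n, 0.064 for Spi1 and 0.072 for Cebpb. With all libraries it was 0.719 for each. In the fit without that library, 15.0% of all genes had an unadjusted p under 0.05. Over all genes, 0 passed with all libraries, 16 without a filter, and 0 to 25 with a library left out, of which 25 came without LPS plus 3A2 replicate 2 and 1 each without LPS plus 3A2 replicate 3 and without LPS replicate 1. With the replicate block 1 gene passed. Same-numbered replicates did not deviate together (r = -0.0065, 0.032 and -0.16), while differently numbered ones gave r from -0.16 to 0.16. The labels state no pairing, and these few values cannot show how the cultures were set up. Scaling moved the median log2 fold change of all genes by at most 0.0043 from 0. Length units left the log2 difference of the ratio of Fcer1g to the activating receptors at 0.20, while leaving out a library gave 0.077 to 0.28; the unit per kb of transcript was added after seeing the data. At 33 to 46 counts per library, depth limits Fcgrt most.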
